A study of Mus musculus with 2 samples.

Results

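Glycolysis and the handling of its product, pyruvate, were described through 30 genes in 2 droplet single-cell libraries, 1 from mouse embryoid bodies and 1 from mouse yolk sac. The genes were taken by symbol, for their known roles, from the 33456 listed in the count tables, and all 30 were detected in both libraries. The embryoid body (EB) library held C57BL/6 embryonic stem cells differentiated in serum for 4 days, after culture on feeder cells and then without them. The labels describe the culture as favouring blood- and vessel-forming mesoderm, and 248 of the cells (13.2%) passed a gate on genes of that mesoderm. The yolk sac (YS) library held C57BL/6 yolk sacs of E9.5 and E10.5 embryos, mixed in equal numbers, so stage cannot be separated in it. About 70% of the YS cells carrying the red cell surface antigen Ter119 had been sorted away. Cells of both libraries had been frozen, thawed and sorted for viability. The labels name no transgene, mutation or drug in either. The libraries differ in source, stage, dissociation enzyme and sort at the same time, and these cannot be told apart.

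Glycolysis splits glucose into pyruvate in the cytosol. Facilitative carriers of the Slc2a family bring glucose in, hexokinases trap it as a phosphate, and phosphofructokinase commits it to breakdown. Aldolase, triose phosphate isomerase, Gapdh, Pgk1, Pgam1, enolase and pyruvate kinase then carry it to pyruvate. Lactate dehydrogenase reduces pyruvate to lactate, which leaves through monocarboxylate carriers of the Slc16a family. Pyruvate may instead enter mitochondria through the Mpc1 and Mpc2 carrier, where the pyruvate dehydrogenase complex oxidises it unless Pdk1 phosphorylates and inhibits that complex. Most steps have several isozymes encoded by different genes. Pluripotent cells in culture are known for high glycolytic flux, and mature red cells, which lose their mitochondria, depend on glycolysis altogether.

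A barcode counted as a cell when it held at least 6172 (EB) or 6537 (YS) unique molecular identifiers (UMIs, each tagging 1 captured molecule) and at most 10% of them came from mitochondrial genes. That left 1878 EB cells with 50691307 UMIs (median 25547 per cell) and 775 YS cells with 24184081 UMIs (median 28461). Only 2 cell barcodes occurred in both libraries. Empty droplets averaged 0.987% of the median cell's UMIs in EB and 0.191% in YS. Levels are UMIs summed over cells and scaled to counts per 1000000 UMIs (CPM). UMIs count molecules, so no division by gene length was made. With 1 library on each side there was no replicate and no test. The 95% intervals given (exact Poisson for levels, Clopper-Pearson for shares, exact conditional binomial for ratios) cover counting error alone, and genes past a 2-fold ratio are counted as higher or lower.

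Messenger RNA of the pathway made up 1.33% of all UMIs in EB cells and 0.748% in YS cells. A set of 8 lower-pathway genes (Aldoa, Tpi1, Gapdh, Pgk1, Pgam1, Eno1, Pkm and Ldha) together reached 11764 CPM in EB cells and 6280 CPM in YS cells, a ratio of 1.87 (95% interval 1.86 to 1.88). In the median cell they took 113 of every 10000 UMIs in EB and 58.4 in YS. Globin messages took 7.24% of YS UMIs and almost none of EB UMIs. Without the 154 cells of the YS erythroid gate described below, the summed YS level was 7297 CPM and the ratio 1.61 (1.60 to 1.62). Across cells the summed level had a Spearman correlation with UMIs per cell of -0.05 in EB and 0.20 in YS, and with the mitochondrial share of -0.17 in EB and -0.25 in YS. These are descriptions of cells that share a library.

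Of the 30 genes, 8 had an EB level at least 2-fold higher than the YS level, where 18.5% of all 15621 genes compared were, and 3 were at least 2-fold lower, where 21.5% of all genes were. The other 19 lay within 2-fold. The higher genes were Aldoc, Ldhb, Eno3, Slc2a3, Slc16a3, Pkm, Aldoa and Ldha, and the lower ones were Hk1, Pfkfb4 and Mpc2. The median log2 ratio was 0.27 over the 30 genes, against 0.00 over all genes. Pgam1 (ratio 1.98) and Pfkl (1.93) stood just under 2-fold, Ldha (2.02) just over it, and Mpc1 (0.560) was the nearest gene on the lower side. When YS erythroid cells were left out, Aldoc, Ldhb and Eno3 were the 3 genes that stayed at least 2-fold higher in EB, where 15.6% of all genes were. Hk1 and Mpc2 then stayed at least 2-fold lower, where 23.9% of all genes were, and the median log2 ratio over the 30 genes was 0.06, against -0.16 over all genes.

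**Figure D1:**
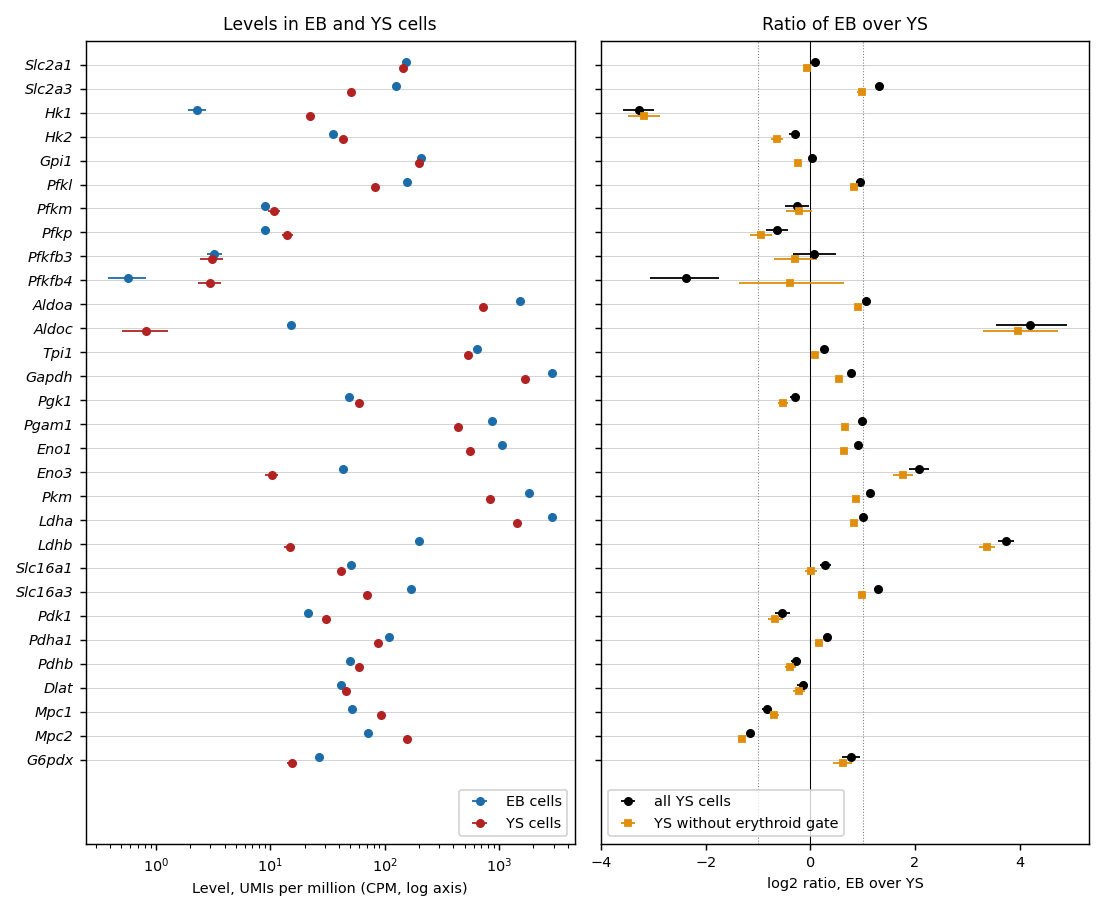
Level of each of the 30 genes in EB and YS cells (left, CPM on a log axis) and the log2 ratio of EB over YS (right), with all YS cells (circles) and without the YS erythroid gate (squares); bars are 95% intervals of counting error and dotted lines mark 2-fold. Aldoc, Ldhb and Eno3 lie right of 2-fold and Hk1 and Mpc2 left of it either way, while Pfkfb4 lies left of it only with erythroid cells counted.

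To place the levels in cell populations, cells were gated on marker genes, none of them among the 30 genes: a cell passed with at least 2 UMIs in each of a set number of its list's markers, between 2 and 5. Gates are named for their marker list, which is a description and no identity measured otherwise. The EB gates were hemangiogenic (Kdr, Etv2, Tal1 and others, 248 cells), definitive endoderm (Foxa2, Sox17, Cer1 and others, 58), germ-gene (Prdm1, Prdm14, Dppa3, Tfap2c and Nanos3, 46), Hand1 and Msx (197), streak (Mesp1, T, Mixl1 and others, 505) and epiblast (Utf1, Pou3f1, Pim2 and others, 193). The YS gates were erythroid (154 cells), visceral endoderm (Ttr, Afp, Apoa1 and others, 30), macrophage (45), endothelial (61), Mpo and Prtn3 (91), progenitor-gene (Runx1, Cd34, Myb and others, 41), smooth muscle (83) and mesenchymal (160). In the germ-gene and progenitor-gene gates none of the gate's own markers was among the 10 genes of highest ratio. Klf2, Lefty1 and Dnd1 led the germ-gene gate and Trbc2 and Gimap6 led the progenitor-gene gate, so both are called by their rule. Doublets were not called. The 137 EB and 47 YS cells that passed several unlike gates were kept apart, and their median UMI counts were 34071 in EB and 54414 in YS.

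Glucose carriers came first in the pathway and varied widely between populations. Slc2a1 (Glut1, a widely expressed basal carrier) stood at 155 CPM (152 to 159) in EB cells and 146 CPM (141 to 151) in YS cells, a ratio of 1.06 (1.02 to 1.11). Slc2a3 (Glut3, a high-affinity carrier known from neurons and the early embryo) stood at 127 CPM (124 to 130) in EB cells and 51.1 CPM (48.3 to 54.0) in YS cells, a ratio of 2.49 (2.34 to 2.65). The like level of Slc2a1 in the libraries covered a wide range within YS. Its level was 413 CPM in the mesenchymal gate, 336 in visceral endoderm and 324 in smooth muscle. It was 91.0 CPM in the erythroid gate and 60.3 in the endothelial gate. The lowest values were 35.8 in the Mpo and Prtn3 gate, 35.2 in the progenitor-gene gate and 30.0 in macrophages, which do not differ beyond their counting intervals (30.0 to 42.4, 26.0 to 46.7 and 21.9 to 40.1).

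Slc2a3 made up 45.0% (44.2 to 45.8) of the UMIs of both carriers in EB cells and 25.9% (24.7 to 27.2) in YS cells. Among EB gates its share was 71.1% in the germ-gene gate and 60.9% in definitive endoderm, and it was lowest in streak cells at 31.7%. Among YS gates it was 71.7% in visceral endoderm, 48.3% in macrophages and 39.0% in the Mpo and Prtn3 gate. Smooth muscle (5.40%), erythroid (7.13%) and mesenchymal cells (8.35%) held almost only Slc2a1. Visceral endoderm, 30 cells, supplied 678 of the 1235 Slc2a3 UMIs in the YS library. Both carriers were often seen in the same endoderm cell. After each cell was thinned to 6000 UMIs, UMIs of both were seen in 86.2% of definitive endoderm cells, against 23.9% of all EB cells. They were seen in 86.7% of visceral endoderm cells, against 10.6% of all YS cells.

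Hexokinase choice differed between the libraries. Hk1 (the widely expressed form, and the main hexokinase of red cells) stood at 2.31 CPM (1.91 to 2.77; 117 UMIs) in EB cells and 22.5 CPM (20.6 to 24.4; 543 UMIs) in YS cells, a ratio of 0.103 (0.083 to 0.126). Hk2 (the inducible form of muscle and of fast-growing cells) stood at 35.1 CPM in EB cells and 43.3 CPM in YS cells, a ratio of 0.812 (0.752 to 0.877). Hk2 was thus 93.8% (92.7 to 94.9) of the pair in EB cells and 65.8% (63.4 to 68.2) in YS cells. An antisense gene, Hk1os, overlaps Hk1 with 39 UMIs in EB and 41 in YS, and whether counting used strand is not given in the sources used here.

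Every EB gate held mostly Hk2, with shares between 79.5% (germ-gene, 31 of 39 UMIs) and 95.8% (epiblast). YS gates were spread over nearly the whole scale. Hk2 was 14.0% (9.25 to 19.9) of the pair in erythroid cells and 42.6% (29.2 to 56.8) in endothelial cells. It was 64.3% in the progenitor-gene gate and 68.6% in the Mpo and Prtn3 gate, which overlap in their intervals (54.7 to 73.1 and 62.9 to 73.9). It was 83.1% in smooth muscle, 91.9% in macrophages and 93.4% in mesenchymal cells. Visceral endoderm held 13 Hk2 UMIs and no Hk1 UMI, which allows an Hk1 level of up to 3.77 CPM at 3 counts. Over the gates of at least 20 cells the Hk2 levels themselves ran from 74.4 CPM in the mesenchymal gate to 4.48 CPM in the erythroid gate, and Hk1 from 29.4 CPM in the progenitor-gene gate to 0. Hk1 in erythroid cells was 27.6 CPM (23.4 to 32.3), against 20.9 CPM in the other YS cells. Globin and mitochondrial UMIs took 31.0% and 1.85% of the erythroid total, so both hexokinase levels there are lower than without them.

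**Figure D2:**
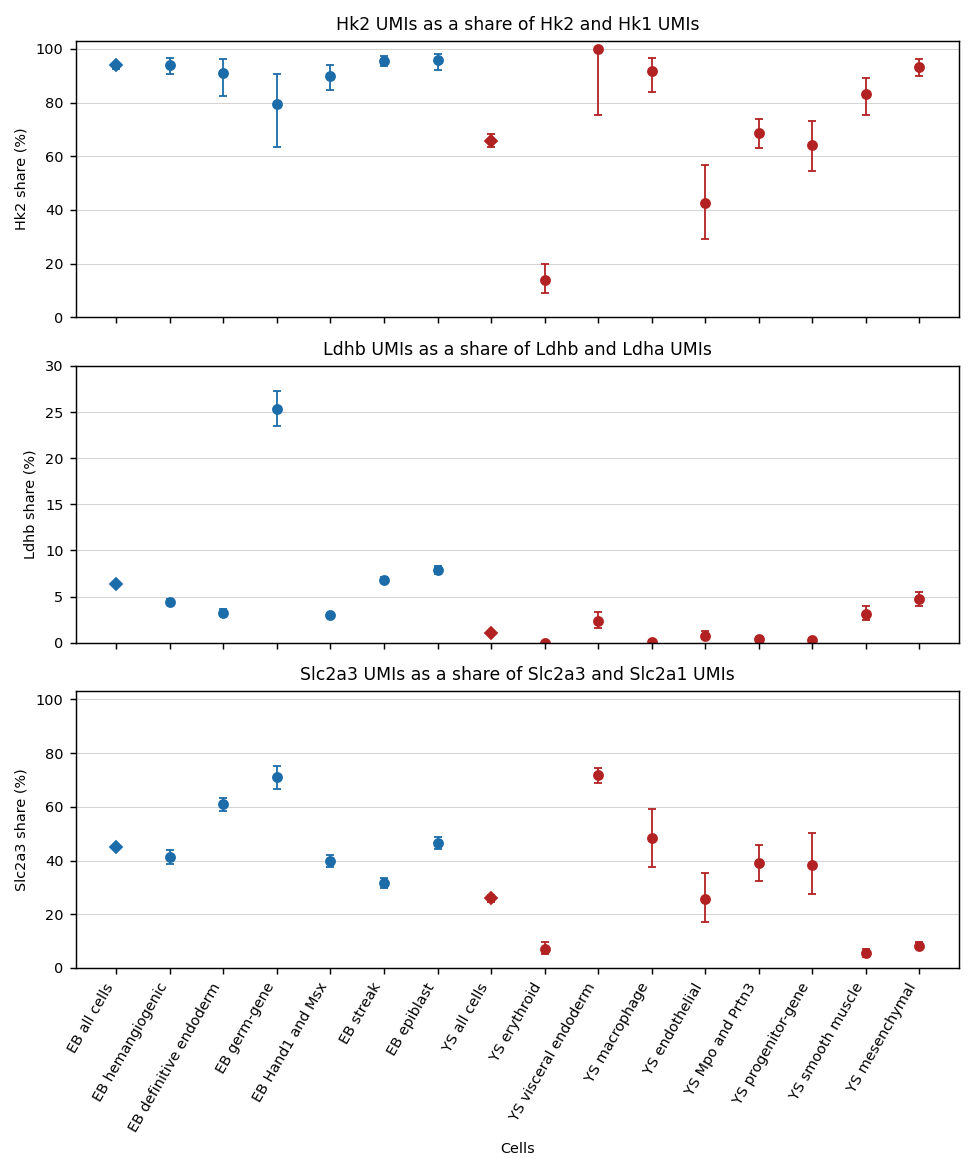
Share of Hk2, Ldhb and Slc2a3 UMIs in the UMIs of each isozyme or carrier pair (percent), in all cells (diamonds) and in each gate (circles) of EB (blue) and YS (red), with 95% Clopper-Pearson intervals. Hk2 runs from 14.0% in YS erythroid cells to 95.8% in EB epiblast-gate cells and 13 of 13 UMIs in YS visceral endoderm. Among the gates shown, Ldhb is highest at 25.4% in the EB germ-gene gate. The 18 cells of an EB naive pluripotency gate, not shown, had an Ldhb share of 20.3%. Slc2a3 is above 60% in both endoderm gates and the germ-gene gate.

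Gpi1 (phosphoglucose isomerase) hardly differed, with 206 CPM in EB cells and 201 CPM in YS cells (ratio 1.03, 0.992 to 1.06). Phosphofructokinase was mostly the liver form in both: Pfkl was 89.7% of the 3 isozymes' UMIs in EB cells and 76.7% in YS cells. Pfkl stood at 158 CPM in EB cells and 82.0 CPM in YS cells (ratio 1.93). Pfkm, the muscle form, stood at 9.05 CPM in EB cells and 10.8 CPM in YS cells, and Pfkp, the platelet form, at 9.07 CPM in EB cells and 14.1 CPM in YS cells. Pfkm overlaps Senp1 and Pfkp overlaps Pitrm1 on the other strand, and both neighbours held more UMIs than the isozyme.

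Pfkfb3 and Pfkfb4 make or remove fructose 2,6-bisphosphate, the activator of phosphofructokinase, and both were scarce. Pfkfb3 stood at 3.26 CPM in EB cells and 3.10 CPM in YS cells. Pfkfb4 stood at 0.572 CPM (0.383 to 0.822; 29 UMIs) in EB cells and 2.98 CPM (2.33 to 3.75; 72 UMIs) in YS cells, a ratio of 0.192 (0.120 to 0.300). Erythroid cells held 58 of those 72 YS UMIs. Their level was 10.4 CPM, against 0.753 CPM in the other YS cells (ratio 13.8, 7.60 to 26.8). Outside the erythroid gate YS and EB could not be told apart for Pfkfb4 at this depth (ratio of EB over YS 0.760, 0.389 to 1.56).

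In the lower pathway the abundant isozymes ran together and the minor isozymes ran further apart. Aldoa stood at 1527 CPM in EB cells and 728 CPM in YS cells (ratio 2.10), and Gapdh at 2889 CPM in EB cells and 1683 CPM in YS cells (1.72). Pgam1 (1.98), Eno1 (1.87) and Tpi1 (1.19) were also above 1 in the ratio of EB over YS, and Pgk1 was below it (0.816). Pkm, the pyruvate kinase of most embryonic cells, stood at 1819 CPM in EB cells and 829 CPM in YS cells (2.19, 2.16 to 2.23). Aldoc, the aldolase best known from brain, stood at 15.1 CPM (764 UMIs) in EB cells and 0.827 CPM (20 UMIs) in YS cells, a ratio of 18.2 (11.7 to 30.0). Eno3, the muscle enolase, stood at 43.6 CPM in EB cells and 10.3 CPM in YS cells, a ratio of 4.22 (3.70 to 4.83). Both remained small parts of their step: Aldoc was 0.978% of aldolase UMIs in EB and 0.114% in YS, and Eno3 was 3.97% of Eno1 and Eno3 UMIs in EB and 1.80% in YS.

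Several of these enzymes have near-identical copies in the genome, with which reads could be shared. The listed copies held few UMIs: Eno1b stood at 17.0 CPM in EB and 11.7 CPM in YS, and Pgk1-rs7, Aldoart1 and Aldoart2 stood below 2.5 CPM in each. Pgk1 was low beside the enzymes next to it, at 48.8 CPM in EB and 59.8 CPM in YS. Aldoa, Tpi1, Gapdh, Pdha1 and G6pdx each overlap a gene on the other strand that held between 12 and 409 UMIs in a library. How reads mapping to several places were counted is not given, so the levels of Aldoa, Tpi1, Gapdh, Pgk1, Pgam1, Eno1, Pkm and Ldha are uncertain to that extent.

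Lactate dehydrogenase is a tetramer of Ldha chains, known to favour lactate formation, and Ldhb chains, known from heart and other oxidative tissue. Ldha stood at 2920 CPM (2905 to 2935) in EB cells and 1445 CPM (1430 to 1461) in YS cells, a ratio of 2.02 (2.00 to 2.04). It was seen in 99.9% of EB cells and 99.5% of YS cells, where free RNA would put an Ldha UMI in 42.7% of EB cells and 8.11% of YS cells. Ldhb stood at 198 CPM (194 to 202; 10032 UMIs) in EB cells and 14.8 CPM (13.3 to 16.4; 358 UMIs) in YS cells, a ratio of 13.4 (12.03 to 14.90). After thinning to 6000 UMIs a cell, Ldhb was seen in 59.2% of EB cells and 10.8% of YS cells. Free RNA in droplets would put an Ldhb UMI in 4.14% of unthinned EB cells and 0.06% of unthinned YS cells, against 90.3% of EB cells and 27.4% of YS cells measured.

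Ldhb was 6.35% (6.23 to 6.47) of lactate dehydrogenase UMIs in EB cells and 1.01% (0.912 to 1.12) in YS cells. Among EB gates it was 25.4% (23.5 to 27.3) in the germ-gene gate and between 2.96% (Hand1 and Msx) and 7.87% (epiblast) in the other 5. It was 20.3% (17.3 to 23.4) in a naive pluripotency gate of 18 EB cells, which is not among those gates. Both levels in the germ-gene gate were past 2-fold. Their Ldha level was 1208 CPM, against 2964 CPM in the other EB cells (ratio 0.408, 0.387 to 0.429), and their Ldhb level was 411 CPM, against 192 CPM (2.14, 1.95 to 2.33). Cells of that gate were not alike: among the 37 with at least 20 UMIs of the pair, the 10th percentile of the Ldhb share was 5.29%, the median 25.8% and the 90th percentile 65.2%. In YS the share was 4.70% in mesenchymal, 3.12% in smooth muscle and 2.30% in visceral endoderm cells. It was below 1% in the other 5 gates, and erythroid cells held 1 Ldhb UMI among 4597 of the pair.

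The window before the start of Ldha and Ldhb, and of Hk1, Hk2 and Slc2a1, is shown because these pairs and carriers take up much of the differences described here. Capitals mark ACGTG or GCGTG, the core letters to which hypoxia-inducible factors are known to bind, on either strand (CACGT or CACGC as printed when on the other strand). CACGTG, the letters of the E-box that MYC is known to bind, holds ACGTG on both strands. Sequences are the 250 bases before the RefSeq start nearest to the annotated gene start, in GRCm38.p6, 5' to 3' in the gene's direction. For Ldha that start lies 4329 bases inside the annotated gene (chr7:46841475-46855627), and the genes Ldhb (chr6:142490249-142507957), Hk1 (chr10:62268855-62379908), Hk2 (chr6:82725025-82774454) and Slc2a1 (chr4:119108711-119137983) begin at or within 34 bases of theirs. Slc2a3 lies at chr6:122727809-122801640 on the minus strand.
Ldha (chr7:46845554-46845803, plus strand): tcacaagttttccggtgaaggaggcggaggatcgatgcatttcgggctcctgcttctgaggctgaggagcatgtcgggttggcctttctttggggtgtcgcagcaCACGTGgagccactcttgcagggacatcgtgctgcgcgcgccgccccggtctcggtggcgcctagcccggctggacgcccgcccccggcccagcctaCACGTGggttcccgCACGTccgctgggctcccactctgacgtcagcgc
Ldhb (chr6:142507958-142508207, minus strand): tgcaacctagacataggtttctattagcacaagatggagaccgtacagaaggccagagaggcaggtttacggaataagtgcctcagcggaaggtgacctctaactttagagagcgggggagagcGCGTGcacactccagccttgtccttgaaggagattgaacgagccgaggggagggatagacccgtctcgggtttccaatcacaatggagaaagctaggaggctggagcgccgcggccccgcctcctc
Hk1 (chr10:62379909-62380158, minus strand): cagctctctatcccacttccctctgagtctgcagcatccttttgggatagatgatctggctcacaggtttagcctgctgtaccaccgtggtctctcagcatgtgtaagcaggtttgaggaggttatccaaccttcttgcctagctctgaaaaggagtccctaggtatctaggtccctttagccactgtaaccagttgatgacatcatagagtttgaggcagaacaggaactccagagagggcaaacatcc
Hk2 (chr6:82774455-82774704, minus strand): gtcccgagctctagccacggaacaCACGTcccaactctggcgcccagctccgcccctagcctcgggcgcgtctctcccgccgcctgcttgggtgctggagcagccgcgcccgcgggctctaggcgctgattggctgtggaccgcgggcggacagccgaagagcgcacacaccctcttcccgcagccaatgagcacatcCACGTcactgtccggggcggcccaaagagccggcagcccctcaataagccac
Slc2a1 (chr4:119108495-119108744, plus strand): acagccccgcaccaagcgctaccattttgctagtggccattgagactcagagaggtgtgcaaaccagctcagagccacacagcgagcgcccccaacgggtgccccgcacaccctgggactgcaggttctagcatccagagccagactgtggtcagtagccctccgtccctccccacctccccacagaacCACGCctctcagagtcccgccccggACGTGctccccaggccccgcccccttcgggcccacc

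In these letters the Ldha window had 5 matches, Ldhb 1, Hk2 2, Slc2a1 2 and the Hk1 window shown 0. Another RefSeq window of Hk1 has a match. Windows of 250 bases before to 50 after the start were at hand for 29 of the 30 genes, all but Slc2a3. ACGTG or GCGTG on either strand occurred in 34 of their 43 windows (79.1%), where 43.8% of all 32851 windows had it. CACGTG occurred in 4 of the 43 (9.30%), where 7.15% of all windows had it. A match describes letters and shows no binding.

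Monocarboxylate carriers take lactate across the membrane. Slc16a3 (Mct4, a low-affinity exporter known from glycolytic muscle) stood at 170 CPM (166 to 173) in EB cells and 69.6 CPM (66.3 to 73.0) in YS cells, a ratio of 2.44 (2.31 to 2.57). Slc16a1 (Mct1, widely expressed) stood at 50.3 CPM in EB cells and 41.3 CPM in YS cells, a ratio of 1.22 (1.13 to 1.31). Slc16a3 was 77.1% of the pair in EB and 62.7% in YS. The balance was lower in both endoderm gates: Slc16a3 was 48.6% (44.8 to 52.4) in EB definitive endoderm and 6.83% (4.165 to 10.47) in YS visceral endoderm, where 5 cells held all 19 of its UMIs. Slc16a3 was also 49.1% (39.5 to 58.7) in YS endothelial cells and 55.2% (47.2 to 63.0) in YS erythroid cells. At the other end stood the EB germ-gene gate, where it was 92.0% (85.3 to 96.3) and Slc16a1 had 9 UMIs.

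Genes that take pyruvate into mitochondria tended to be level or lower in EB. Mpc2 stood at 71.1 CPM (68.8 to 73.4) in EB cells and 157 CPM (152 to 162) in YS cells, a ratio of 0.452 (0.432 to 0.474). Its partner Mpc1 stood at 51.7 CPM in EB cells and 92.3 CPM in YS cells (0.560, 0.529 to 0.593). The dehydrogenase subunits differed little, with ratios of EB over YS of 1.25 for Pdha1, 0.828 for Pdhb and 0.903 for Dlat. Pdk1, the inhibiting kinase, stood at 21.3 CPM in EB cells and 30.8 CPM in YS cells (0.691). G6pdx opens the pentose phosphate branch, which leaves glycolysis after hexokinase, and stood at 26.6 CPM in EB cells and 15.6 CPM in YS cells (1.71, 1.52 to 1.92).

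Among EB populations the definitive endoderm gate stood highest. It had the highest level of 19 of the 30 genes over the 6 EB gates. Among genes with at least 5 UMIs expected in the smallest EB gate, it was highest for 18 of 27 of them and for 19.2% of all 9091 genes. The 8 lower-pathway genes summed to 18800 CPM there, against 11764 CPM in all EB cells. In the median definitive endoderm cell they took 187 of every 10000 UMIs, with 80% of cells between 132 and 252. Of 27 genes compared, 8 were at least 2-fold higher than in the other EB cells, where 3.99% of all genes were, and Mpc2 alone was at least 2-fold lower, where 7.96% of all genes were. The median log2 ratio was 0.55 over the 27, against -0.11 over all genes. Slc2a3 was 738 CPM (693 to 786), against 111 CPM in the other EB cells, a ratio of 6.66. Slc16a1 was 269 CPM (241 to 298), against 44.6 CPM, a ratio of 6.03. Slc2a1 (3.23), Pdk1 (3.22), Aldoc (3.21), Pgk1 (2.24), Ldha (2.18) and Pfkl (2.09) made up the rest. Mpc2 was 35.9 CPM, against 72.0 CPM in the other EB cells (0.498). The median cell of the gate had 22338.5 UMIs and a mitochondrial share of 2.54%, against 25547 UMIs and 2.85% over all EB cells.

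Hypoxia-inducible factors are known to switch on most glycolytic genes when oxygen is low, and their targets outside glycolysis were therefore listed too. In the definitive endoderm gate 8 of the 14 targets compared were at least 2-fold higher, where 3.99% of all genes were. None was at least 2-fold lower, where 7.96% of all genes were. The median log2 ratio was 1.18 over the 14, against -0.11 over all genes. The 8 higher targets were Ddit4, Vegfa, Egln1, Ndrg1, Bnip3, P4ha1, Mxi1 and Ero1l, 7 of which were named after their values were seen. Ddit4, a stress-induced inhibitor of the growth kinase mTORC1, was 297 CPM, against 50.4 CPM in the other EB cells (5.89, 5.28 to 6.56). Vegfa, the vessel growth factor, was 25.2 CPM, against 4.54 CPM (5.56). Egln1, the oxygen-sensing hydroxylase, was 54.2 CPM, against 13.0 CPM (4.17). Egln3 did not go with them, at 22.1 CPM, against 25.7 CPM (0.861). Car9 was too scarce to be compared in any of the 6 EB gates, and Adm in all but the streak gate. In the other 5 EB gates between 0 and 1 target was at least 2-fold higher, where between 1.09% and 4.12% of all genes were. At least 2-fold lower were 3 of 14 in the hemangiogenic gate, where 6.64% of all genes were. In the germ-gene gate 3 of 14 were lower, where 9.27% of all genes were. None was in the Hand1 and Msx, streak and epiblast gates, where between 5.12% and 7.06% of all genes were. Whether oxygen had a part in these levels was not tested.

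**Figure D3:**
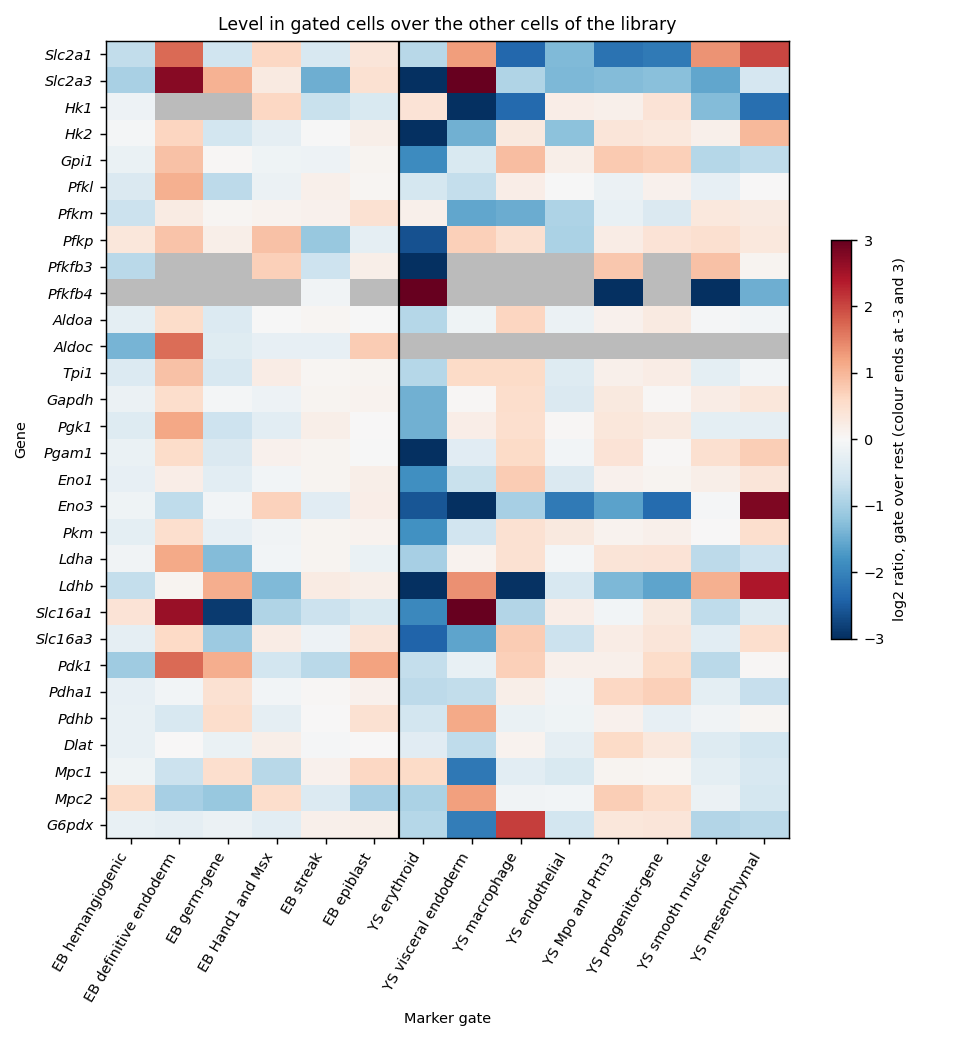
log2 ratio of each gene's level in a gate over the other cells of its library, for 6 EB gates (left of the line) and 8 YS gates; red is higher in the gate, blue lower, colours end at -3 and 3, and grey marks pairs under 5 expected UMIs. Red clusters in the definitive endoderm column, blue fills the erythroid column, and Slc2a1, Slc2a3, Hk1, Eno3 and Ldhb change colour between YS gates.

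YS visceral endoderm, the absorptive epithelium that feeds the embryo, also had high levels of Slc2a3 and Slc16a1, with the 8 lower-pathway genes each within 2-fold of the other YS cells. Slc2a3 was 853 CPM (790 to 919), against 23.8 CPM in the other YS cells, a ratio of 35.8 (32.0 to 40.1). Slc16a1 was 326 CPM (287 to 368), against 31.7 CPM, a ratio of 10.3 (8.89 to 11.9). Of 27 genes compared, 6 were at least 2-fold higher, where 13.4% of all genes were, and 7 at least 2-fold lower, where 23.7% of all genes were. The other higher genes were Ldhb (2.59), Slc2a1 (2.40), Mpc2 (2.33) and Pdhb (2.18). The lower genes were Hk1, Eno3, Mpc1, G6pdx, Slc16a3, Pfkm and Hk2, and Pfkm rested on 3 UMIs (ratio 0.342, 0.070 to 1.01). Ldha was level at 1547 CPM, against 1442 CPM in the other YS cells, and the 8 lower-pathway genes summed to 6048 CPM. Mpc1 and Mpc2, which work as partners, went apart: Mpc1 was 21.4 CPM, against 94.7 CPM, and Mpc2 was 351 CPM, against 150 CPM.

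Of hypoxia-inducible factor targets 2 of 14 were at least 2-fold higher in the visceral endoderm gate, where 13.4% of all genes were. At least 2-fold lower were 6 of 14, where 23.7% of all genes were. The median log2 ratio was -0.64 over the 14, against -0.25 over all genes. The median mitochondrial share of the gate's 30 cells was 4.21%, against 1.87% over all YS cells. With cells limited to 5% the Slc2a3 share of the whole YS library was 19.7%, and with 20% allowed it was 29.0%, against 25.9% as reported.

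**Figure D4:**
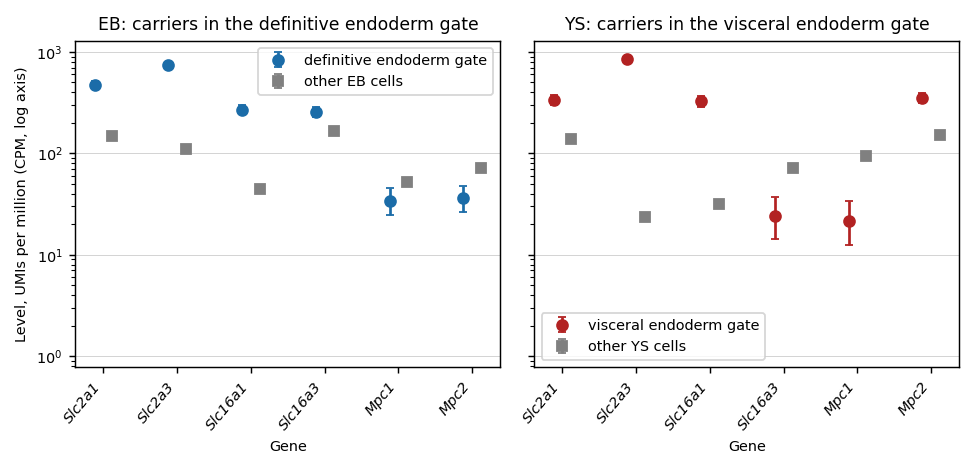
Level (CPM, log axis) of the glucose, lactate and mitochondrial pyruvate carriers in the EB definitive endoderm gate and the YS visceral endoderm gate (circles) and in the other cells of each library (squares), with 95% Poisson intervals. Slc2a1, Slc2a3 and Slc16a1 lie above the other cells in both gates, while Slc16a3 and Mpc2 lie on opposite sides.

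The EB germ-gene gate had the lowest sum of the 8 lower-pathway genes among the 6 EB gates, 8688 CPM. It had the lowest level of 12 of the 30 genes and the highest of 5 (Hk1, Ldhb, Pfkfb4, Pdha1 and Pdhb). Among genes with at least 5 UMIs expected there, it was lowest for 11 of 27 of them and 28.3% of all genes, and highest for 3 of 27 and 24% of all genes. Of 27 genes compared, 3 were at least 2-fold higher (3.96% of all genes) and 4 at least 2-fold lower (9.27% of all genes). Beside Ldhb, the higher ones were Pdk1 (43.8 CPM, against 20.7 CPM in the other EB cells) and Slc2a3 (257 CPM, against 124 CPM). Beside Ldha, the lower ones were Slc16a1 (7.05 CPM, against 51.5 CPM; ratio 0.137, 0.063 to 0.260), Mpc2 (0.456) and Slc16a3 (0.469). The 18 cells of the naive pluripotency gate were too few for ratios to be counted. They had levels of 1183 CPM for Ldha and 271 CPM for Slc2a3. Their shares were 20.3% for Ldhb and 72.6% for Slc2a3.

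The remaining EB gates differed in few members. In hemangiogenic cells 26 of 29 ratios lay below 1, but only Aldoc (0.380) and Pdk1 (0.477) were at least 2-fold lower, where 6.64% of all genes were, and none was 2-fold higher, where 2.37% were. In the Hand1 and Msx gate Ldhb was 84.8 CPM, against 211 CPM in the other EB cells (0.401, 0.364 to 0.441). It was the 1 gene of 29 at least 2-fold lower (6.88% of all genes), and none was 2-fold higher (3.30% of all genes). In streak cells Slc2a3 was 56.7 CPM, against 156 CPM (0.363), and Pfkp was 4.93 CPM, against 10.8 CPM (0.457). They were the 2 of 30 at least 2-fold lower (7.06% of all genes), with none 2-fold higher (1.09%). In the epiblast gate Pdk1 was 43.4 CPM, against 18.8 CPM (2.31, 1.99 to 2.68), the 1 gene of 29 at least 2-fold higher (4.12% of all genes), and none was 2-fold lower (5.12%).

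**Figure D5:**
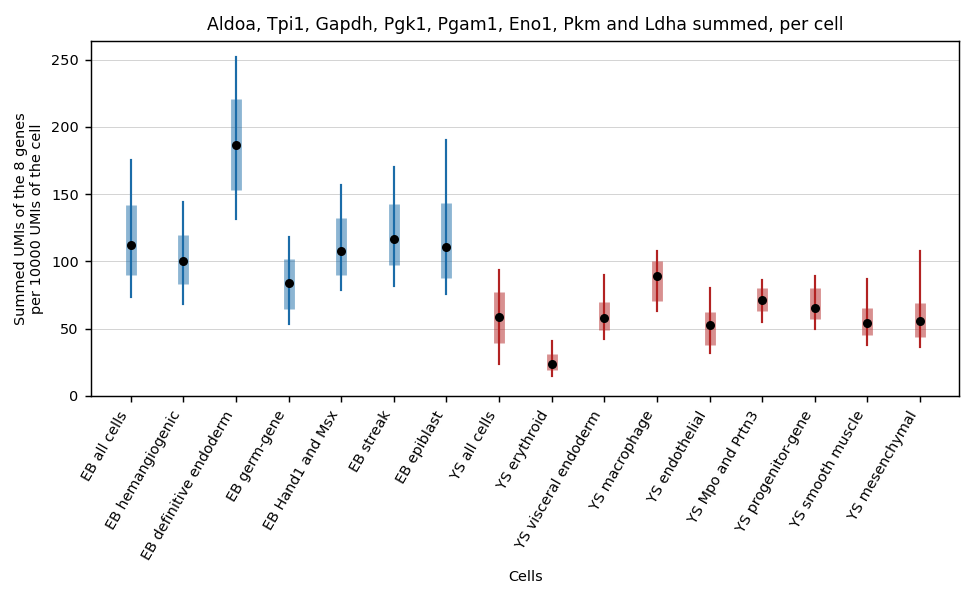
UMIs of the 8 lower-pathway genes per 10000 UMIs of a cell, by library and gate; points are medians, thick bars the middle 50% of cells and thin lines the 10th to 90th percentile. Medians run from 187 in EB definitive endoderm to 23.9 in YS erythroid cells, and the macrophage median of 89.1 is the highest of the YS gates.

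YS erythroid cells held the lowest lower-pathway level, 2892 CPM, and 4306 CPM once globin and mitochondrial UMIs, 31.0% and 1.85% of all, were left out of the total. Of 29 genes compared, 14 were at least 2-fold lower than in the other YS cells, where 57.9% of all genes were. The median log2 ratio was -0.99 over the 29 genes, against -1.23 over all genes. With globin and mitochondrial UMIs left out, 12 were lower, where 41.4% of all genes were, and Pfkfb4 and Mpc1 (2.15) were higher, where 4.80% were. The median log2 ratio was then -0.44 over the 29 genes, against -0.67 over all genes. Pgam1 was 67.9 CPM, against 549 CPM (0.124), Pkm 283 CPM, against 993 CPM (0.285), and Gapdh 728 CPM, against 1969 CPM (0.370). The others, beside Hk2 and Slc2a3, were Gpi1, Pfkp, Pgk1, Eno1, Eno3, Slc16a1 and Slc16a3, with ratios between 0.164 and 0.371, and Pfkfb3 and Ldhb with 1 UMI each. Ldha (0.504), Aldoa (446 CPM) and Tpi1 (329 CPM) were less far from the other cells. Mpc1, at 123 CPM against 83.1 CPM, was above them. Pfkfb4 was the 1 gene at least 2-fold higher, where 3.01% of all genes were.

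Isozymes known from red cells appeared there outside the 30 genes. Pklr, the liver and red cell pyruvate kinase, was 43.9 CPM (38.6 to 49.7) in erythroid cells, against 1.08 CPM in the other YS cells (40.8, 25.9 to 68.0), and EB cells held 1 UMI of it. Bpgm, which makes the 2,3-bisphosphoglycerate that lowers the oxygen affinity of haemoglobin, was 244 CPM (231 to 257), against 15.6 CPM (15.6, 13.7 to 17.7). Bpgm was chosen after its values were seen. Pkm, at 283 CPM, was the larger pyruvate kinase message of the erythroid gate.

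Macrophages had the highest level of 11 of the 30 genes over the 8 YS gates and 8911 CPM for the 8 lower-pathway genes. All 11 were among the 27 with at least 5 UMIs expected in the smallest YS gate, and of all 8149 such genes 11.4% were highest in macrophages. G6pdx was 54.6 CPM (43.4 to 67.8), against 13.0 CPM in the other YS cells (4.20, 3.25 to 5.38), the 1 gene of 27 at least 2-fold higher, where 7.83% of all genes were. It was seen in 71.1% of the 45 cells, and their 5 highest held 32.9% of its UMIs. In the pentose phosphate list 2 of 9 genes were at least 2-fold higher, with a median log2 ratio of 0.35. That median was 0.47 in the Mpo and Prtn3 gate and 0.43 in the progenitor-gene gate, with 0 of 9 genes past 2-fold in each. Slc2a1 (0.195), Hk1 (0.197), Ldhb (0.128), Pfkm (0.355) and Eno3 (0.499) were lower, where 17.5% of all genes were. Beside the 45 UMIs of Slc2a1 these rested on few: 7 of Hk1, 3 of Ldhb, 6 of Pfkm and 8 of Eno3. For Slc2a1, Ldhb and Eno3 the other YS cells include the mesenchymal gate, on which the ratios depend. It held 1405 of the library's 3535 Slc2a1 UMIs, 167 of 358 for Ldhb and 133 of 250 for Eno3. Median levels over the 8 YS gates were 75.7 CPM for Slc2a1, 8.60 CPM for Ldhb and 3.12 CPM for Eno3. Gpi1 (360 CPM) and Eno1 (917 CPM) reached their highest YS levels in macrophages.

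Mesenchymal cells paired the highest Slc2a1 of the YS gates with the minor enolase and lactate dehydrogenase. Slc2a1 was 413 CPM (392 to 435), against 102 CPM in the other YS cells (4.03, 3.77 to 4.31). Eno3 was 39.1 CPM, against 5.63 CPM (6.95, 5.38 to 8.99), and Ldhb was 49.1 CPM, against 9.19 CPM (5.34, 4.32 to 6.61). These were the 3 of 29 at least 2-fold higher, where 18.4% of all genes were, while Hk1 (0.210) and Pfkfb4 (0.360, on 4 UMIs) were lower, where 15.0% of all genes were. For Pfkfb4, here and in the gates below, the other YS cells include the erythroid gate, which held 58 of the library's 72 UMIs. Of the 133 Eno3 UMIs, 29.3% came from 5 cells. Hypoxia-inducible factor targets were at least 2-fold higher for 6 of 16 and lower for 2, with a median log2 ratio of 0.45. The largest was P4ha2, a collagen prolyl hydroxylase (262 CPM, against 27.0 CPM), named after its value was seen.

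Smooth muscle also had high Slc2a1 and Ldhb, with Slc2a1 at 324 CPM, against 128 CPM in the other YS cells (2.53), and Ldhb at 28.1 CPM, against 13.4 CPM (2.10). These 2 of 29 genes were at least 2-fold higher, where 16.7% of all genes were, and Slc2a3, Hk1 and Pfkfb4 (0 UMIs) were lower, where 13.9% were. With globin and mitochondrial UMIs left out, the Ldhb ratio was 1.92. Hypoxia-inducible factor targets were at least 2-fold higher for 5 of 15 and lower for 2, with a median log2 ratio of -0.03. P4ha2 was again the largest (210 CPM, against 44.5 CPM). In endothelial cells 4 of 27 genes were at least 2-fold lower (9.67% of all genes) and none higher (12.3%). They were Eno3 (3 UMIs), Slc2a3 (0.392), Slc2a1 (0.400) and Hk2 (0.427). The Mpo and Prtn3 gate and the progenitor-gene gate had Slc2a1 far below the other YS cells, with ratios of 0.215 in the Mpo and Prtn3 gate and 0.231 in the progenitor-gene gate. Slc2a3, Eno3 and Ldhb were the further genes lower in both. For Slc2a3 in these gates, endothelial cells and smooth muscle, the other YS cells include visceral endoderm, which held 678 of the library's 1235 UMIs. Their Slc2a3 ratios therefore depend on that gate, and the median Slc2a3 level over the 8 YS gates was 22.5 CPM. The other YS cells also include the mesenchymal gate, which held 133 of the library's 250 Eno3 UMIs. Slc2a1, Eno3 and Ldhb ratios of the Mpo and Prtn3 and progenitor-gene gates depend on it. So do the Slc2a1 and Eno3 ratios of endothelial cells. The median Eno3 level over the 8 YS gates was 3.12 CPM. Of the 29 genes compared in the Mpo and Prtn3 gate, 5 were lower (20% of all genes), Pfkfb4 on 1 UMI among them, and none higher (5.45%). Of the 27 compared in the progenitor-gene gate, 4 were lower (14.9%) and none higher (3.45%). The 16 cells of a megakaryocyte gate, too few for ratios to be counted, had the highest Hk1 level of any YS gate, 48.6 CPM (33.2 to 68.6).

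Over the 14 gates of at least 20 cells, 395 pairs of gene and gate were compared, of which 25 (6.33%) were at least 2-fold higher and 54 (13.7%) at least 2-fold lower. Over all genes 6.82% of such pairs were higher and 15.5% lower, so the totals over gates were near those of all genes. The 47 YS cells that passed no gate had 10466 CPM for the 8 lower-pathway genes. Their Pgk1 was 147 CPM, against 55.4 CPM in the other YS cells (2.64), and their Ldha 2791 CPM, against 1377 CPM (2.03). These cells are named by no marker list.

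Neighbouring pathways were set beside the 30 genes by counts alone. Of all genes compared, 18.5% were at least 2-fold higher in EB and 21.5% at least 2-fold lower. Some list counts in this and the next paragraph are near those shares. Of 18 TCA cycle genes 17 lay within 2-fold, with a median log2 ratio of EB over YS of -0.16. The exception was Idh2, the mitochondrial isocitrate dehydrogenase (95.7 CPM in EB cells and 198 CPM in YS cells). Of 9 pentose phosphate genes none was at least 2-fold higher in EB and 2 were lower, Rpia (0.175) and H6pd (0.256). Other isozymes and hexose carriers gave 4 of 20 higher and 9 lower (median log2 -0.66). Pklr stood at 0.02 CPM in EB cells and 11.0 CPM in YS cells. Slc2a4 and Slc2a12, further glucose carriers, were higher in EB (3.18 and 2.89) at under 2 CPM.

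Other lactate and pyruvate genes gave 1 of 16 higher in EB (Ldhc, with 1 YS UMI) and 2 lower (median log2 -0.08), and Slc16a7, a further monocarboxylate carrier, stood at 0.059 CPM in EB cells and 1.86 CPM in YS cells. Gluconeogenesis and glycogen gave 1 of 13 higher and 4 lower (median log2 -0.80). The muscle fructose bisphosphatase Fbp2 stood at 0.158 CPM in EB cells and 9.34 CPM in YS cells, and the liver form Fbp1 at 0.907 CPM in EB cells and 0.207 CPM in YS cells. Hypoxia-inducible factor targets gave 1 of 16 higher in EB, Ddit4 (56.8 CPM in EB cells and 14.5 CPM in YS cells, ratio 3.92), and 6 lower (median log2 -0.23), among them Car9 and Adm. Of 12 regulators 3 were higher and 2 lower. Lin28a, an RNA-binding protein of pluripotent cells, stood at 95.8 CPM in EB cells and 17.0 CPM in YS cells, and Mycn at 71.7 CPM in EB cells and 22.8 CPM in YS cells. Epas1 (0.203) and Txnip (0.371), which holds back glucose uptake, were lower in EB.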

How the data were processed

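Libraries of 1 EB and 1 YS suspension were made on the 10x Chromium system from 300 cells per microlitre and sequenced on a HiSeq2500, per the labels' protocols. The authors deposited raw UMI counts per gene and barcode for 737280 barcodes a library, unfiltered, against mm10 per the submitters' processing notes. Aligner, counter and annotation: not given in the sources used here. Gene coordinates and overlaps came from GENCODE M21 (GRCm38).

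The UMI minimum was set at 10% of the 99th percentile among the 3000 largest barcode totals. It was passed by 2020 EB barcodes, of which 142 were over the mitochondrial limit, and by 801 YS barcodes, of which 26 were. Counts were summed over cells and given as CPM. Genes with at least 10 UMIs over both sides were compared, and for gates also at least 5 UMIs expected in the gate, a filter chosen after seeing the data. A side at 0 was set against a floor of 3 counts (0.059 CPM in EB, 0.124 in YS). A marker counted with at least 2 UMIs in a cell. Their thresholds were set after marker counts had been seen, and overlaps between related gates were settled by a fixed order. Thinning drew 6000 UMIs a cell. Empty droplets were ranks 10001 to 50000 by total. Adgre1 and Tigar were matched by older symbols. Genes named are all members past 2-fold or in the 3 isoform pairs, and from each other list genes among the 2 highest and 2 lowest ratios with at least 30 UMIs in the higher library, others being marked. 1 gene that this rule names is not reported here. The members, lists and comparisons were chosen with earlier results of these data known. Python 3.11.15, numpy 2.4.6, scipy 1.17.1, pandas 2.3.3 and matplotlib 3.10.9 were used, and the interval code was tested on simulated data. Alternatives changed the cell filters, weighting, scaling, low-count filter and gate strictness.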

Additional observations from a re-analysis of the deposited data

Results flagged for a closer look

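Barcodes that reached the UMI minimum but exceeded 10% mitochondrial UMIs were left out of every comparison, and they still carried the 8 lower-pathway genes. In the 142 such EB barcodes the summed level was 13789 CPM of nuclear-genome UMIs (13556 to 14025), against 12118 CPM in EB cells, a ratio of 1.14 (1.12 to 1.16). In the 26 such YS barcodes it was 4766 CPM (4490 to 5056), against 6408 CPM in YS cells, a ratio of 0.744 (0.700 to 0.789). Their median UMI counts were 7195 in EB and 9672.5 in YS. The directions were opposite in the libraries, and that difference was not tested.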

How the results depend on the processing

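No paired analysis was possible because each group is 1 library and the replicate numbers are only names that tie no samples, and no library could be left out. Of 87 alternative values, 76 stayed within the limit set for them, 11 moved and none changed direction. The limit was counting error for shares and 1.5 times the reported count for counts. For the median log2 ratio it was an interval over the genes, -0.25 to 0.95, in which either sign would pass. The fall of that median from 0.27 to 0.06 without YS erythroid cells was therefore counted as unchanged. The EB shares cannot change when YS cells are left out, and those values are among the 76. Without YS erythroid cells, 3 genes in place of 8 were at least 2-fold higher in EB, and with globin and mitochondrial UMIs left out 6 were. In YS the Hk2 share was 68.4% without the 5% of cells with the most UMIs, 72.1% with each cell weighted equally and 72.4% without erythroid cells. The Ldhb share there was 1.13%, 1.36% and 1.16% under the same settings. The Slc2a3 share was 47.2% in EB with equal weights. In YS it was 19.7% at a mitochondrial limit of 5%, 29.0% at 20% and 28.3% without erythroid cells. The cause of these shifts was not tested, beyond what leaving cells out does by construction. Over gates, 25 of 395 pairs were higher and 54 lower. With 1 more marker asked for, 22 of 312 pairs were higher and 44 lower, over the 11 of 14 gates that kept at least 20 cells. Those gates are not all narrower, since cells pass on to related gates: the progenitor-gene gate then held 107 cells in place of 41 and the mesenchymal gate 232 in place of 160. Without the minimum of expected UMIs, 29 of 420 pairs were higher and 58 lower. Depth limits Pfkfb3, Pfkfb4, Aldoc in YS and Hk1 in EB within gates.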
